A study of Mus musculus with 45 samples.

Results

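Between 40 h and 48 h after partial hepatectomy, transcripts of 10 DNA replication genes fell in wild-type (WT) mouse livers, while none of the 70 tested members of a list of mitosis genes passed the test in either direction. The comparison used 2 WT liver libraries at 48 h (replicates 2 and 3) and 3 at 40 h (replicates 1 to 3), 5 of the 45 libraries in the series. They were chosen by genotype and time alone, from the labels. All came from C57Bl/6 mice of 8 to 12 weeks on a normal diet, and every mouse had 2/3 of the liver removed between 9 am and noon. The labels do not say whether each library came from its own animal, so p-values measure the spread between libraries within groups. That spread was estimated over all 45 libraries of the series. A second pair of groups was used beside them, 3 libraries at 48 h and 3 at 40 h from Uhrf1hepKO livers (KO) with the same strain, age, diet and surgery. The KO genotype name refers to Uhrf1 and to hepatocytes, and the sources used here do not name the driver of the deletion.

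Hepatocytes of the adult liver rest outside the cell cycle, and removal of liver mass sends many of them into it nearly together. Genes for DNA synthesis are switched on as cells pass into S phase, largely by E2F transcription factors paired with a DP partner. Genes for mitosis come on later through the MuvB complex with B-Myb and Foxm1, which acts at CHR elements near the start of the gene. Many of these genes also hold CCAAT elements there. Uhrf1 reads hemimethylated DNA behind the replication fork and brings in Dnmt1, so that DNA methylation is copied to the new strand.

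Total counts were 17292597 and 17452757 in the 48 h libraries and 14835207 to 17088663 in the 40 h libraries. Gene levels are TMM-scaled CPM, a count set against library size, and fold changes are log2 of 48 h over 40 h. Their standard error was calculated back from the fold change and the F statistic of the edgeR test. Albumin, the main hepatocyte product, took 9.41% and 5.56% of counts at 48 h, against 8.02% to 8.10% at 40 h. Markers of T cells and B cells were at or near 0: 15 of 18 lymphocyte markers stayed under 0.5 CPM in all 5 libraries, the exceptions being Cd4, Ighm and Igkc. Taken as the root mean square difference of log2 CPM, the 48 h libraries stood 0.432 apart and the 40 h libraries 0.347 to 0.403 apart, and pairs across times 0.379 to 0.525 apart. Nominal collection fell between 9 and 12 o'clock for 48 h and between 1 and 4 o'clock at night for 40 h. Time since surgery and time of day therefore cannot be told apart in this comparison.

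Of 14090 genes tested, edgeR's quasi-likelihood test called 32 at an adjusted p under 0.05 (0.227%). Of these, 26 were lower at 48 h (0.185%) and 6 were higher (0.0426%), and 11 of the lower and 2 of the higher changed at least 2-fold. A further view is given by the unadjusted p, which was under 0.05 for 1518 genes (10.8%). The median log2 fold change over all genes was -0.024. The count of 32 rests on a few libraries: it was 0 without 40 h replicate 3, 8 without 40 h replicate 1, 66 without 48 h replicate 2, of which 9 were among the 32, and 119 without 40 h replicate 2. Without 48 h replicate 3 it was also 32, of which 11 were the same genes. It was also 0 when the spread was estimated from the 5 WT libraries alone and 11 with the replicate number as a block.

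Genes of DNA synthesis made up the largest named group among the calls. Of 61 S-phase genes tested, 10 fell (against 0.185% of all genes called lower), 0 rose, and 59 had a negative fold change, as did 53.7% of all genes. Their median log2 fold change was -0.98, and 52 of the 61 had an unadjusted p under 0.05 (10.8% over all genes). Both 48 h libraries lay below all 3 40 h libraries for 47 of the 61, which held for 15.1% of all genes tested. Without 40 h replicate 3, 0 of the 61 were called, with a median of -0.74. Without 40 h replicate 2 the count was 27, without 40 h replicate 1 it was 3, and without 48 h replicates 2 and 3 in turn it was 5 and 1.

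Pcna encodes the sliding clamp that holds DNA polymerases on the template (chr2:132249162-132253314, GRCm38, minus strand). It stood at 54.6 and 63.1 CPM at 48 h, against 166, 109 and 224 CPM at 40 h. The lowest 40 h library, replicate 2, was still well above both 48 h libraries, and the fold change was -1.50 ± 0.24 (SE, edgeR adjusted p = 0.0042). Earlier in regeneration Pcna had been 19.7 to 22.2 CPM at baseline, 21.6 to 26.9 CPM at 24 h and 45.9 to 67.7 CPM at 30 h, so both 48 h values lay inside the range of the 30 h libraries. Pclaf, a small clamp-binding protein outside the list, fell 3.15-fold, to 8.21 and 8.62 CPM at 48 h, against 31.3, 15.0 and 33.4 CPM at 40 h (log2 -1.66 ± 0.37, edgeR adjusted p = 0.043). Its reads may include some of Trip4, which overlaps it on the other strand and averaged 45.7 CPM. Both genes were lowest among the 40 h libraries in replicate 2.

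The roles that split the S-phase list were set after the values were seen. The polymerase and fork group held 21 genes, of which 5 fell and all 21 had a negative fold change, with a median of -0.87. Over all genes tested, 0.185% were called lower and 53.7% had a negative fold change. Pola1, the catalytic subunit of the primase-polymerase that starts each new strand, had 11.9 CPM in both 48 h libraries, against 29.2, 19.5 and 34.0 CPM at 40 h (log2 -1.21 ± 0.28, edgeR adjusted p = 0.046). Rpa1, which coats single-stranded DNA, had 62.9 and 57.2 CPM at 48 h, against 108, 79.8 and 128 CPM at 40 h (log2 -0.81 ± 0.15, edgeR adjusted p = 0.0164). The groups did not overlap for either gene, but this held for all 32 called genes and adds no support to the calls. Tipin, of the fork protection complex, and Rfc1, the large subunit of the clamp loader, also fell (log2 -1.08 ± 0.23 and -0.72 ± 0.16, edgeR adjusted p = 0.0331 and 0.043). The primase genes Prim1 and Prim2 were at log2 -1.16 and -1.02 and narrowly missed the threshold (edgeR adjusted p = 0.0542 and 0.0536). Pold3, a polymerase delta subunit outside the list, fell as well (log2 -0.91 ± 0.19, edgeR adjusted p = 0.0335).

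**Figure D1:**
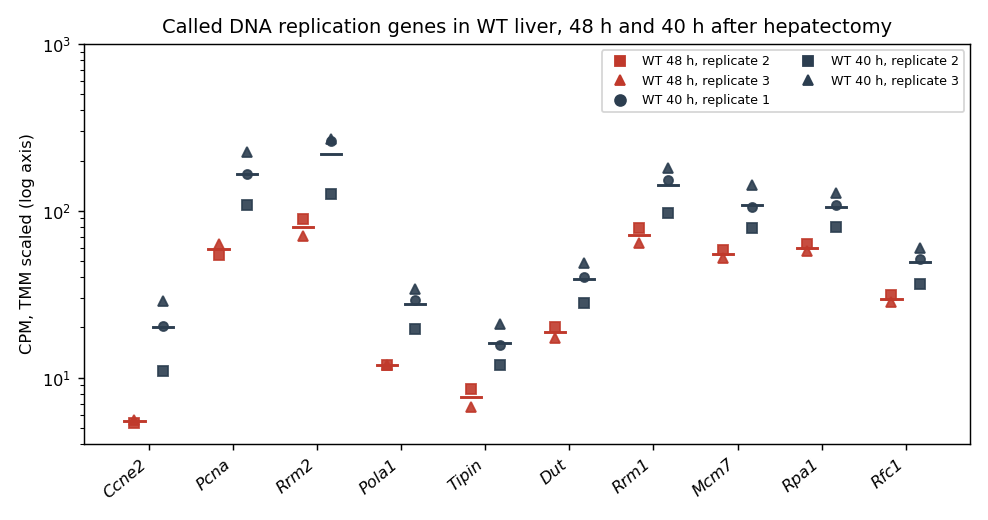
CPM on a log axis of the 10 called S-phase genes in each WT library, 48 h left of 40 h for each gene; bars are group means (n = 2 and n = 3). For every gene shown, both 48 h libraries lie below all 3 40 h libraries, and replicate 2 is the lowest 40 h library.

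Deoxynucleotide supply followed the fork genes: 3 of 6 genes fell (0.185% over all genes tested) and all 6 had a negative fold change (53.7% over all genes). Dut (chr2:125247190-125258608, plus strand), which breaks down dUTP and keeps uracil out of DNA, had the smallest unadjusted p of the comparison and the same adjusted p as Pcna. It had 20.2 and 17.3 CPM at 48 h, against 40.2, 27.9 and 48.8 CPM at 40 h, a 2.07-fold difference (log2 -1.05 ± 0.17, edgeR adjusted p = 0.0042). Rrm2, the regulated subunit of ribonucleotide reductase, had 89.0 and 71.1 CPM at 48 h, against 262, 126 and 270 CPM at 40 h (log2 -1.45 ± 0.31, edgeR adjusted p = 0.0335). Its 48 h levels were still several times those of the 30 h libraries, at 14.4 to 22.6 CPM, in contrast to Pcna. Rrm1, its partner subunit, fell 2.00-fold (edgeR adjusted p = 0.043). Tk1, the thymidine salvage kinase, gave a log2 value of -0.48 that did not pass the test (edgeR adjusted p = 0.568). Mthfd2, a mitochondrial one-carbon folate enzyme kept in the amino acid stress list, fell to 6.77 and 6.16 CPM at 48 h, against 13.4, 13 and 16.4 CPM at 40 h (log2 -1.14 ± 0.24, edgeR adjusted p = 0.0332).

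Among 18 helicase and origin licensing genes 1 fell (0.185% over all genes tested). A negative fold change was found for 17 (53.7% over all genes), with a median of -1.05. Mcm7, a subunit of the replicative helicase, had 58.2 and 52.2 CPM at 48 h, against 105, 78.9 and 142 CPM at 40 h (log2 -0.98 ± 0.22, edgeR adjusted p = 0.0449). Mcm6 and Mcm2 had larger fold changes, log2 -1.52 ± 0.46 and -1.28 ± 0.40, and larger errors, and did not pass (edgeR adjusted p = 0.152 and 0.171). The licensing factor Cdc6 had a wide 40 h group as well, with 3.66 and 4.08 CPM at 48 h, against 15.1, 5.16 and 19.8 CPM at 40 h (edgeR adjusted p = 0.300). Dbf4, which activates the Cdc7 kinase at origins, was 1 of the 2 S-phase genes with a positive value (log2 0.38 ± 0.27, edgeR adjusted p = 0.654). It was high in 48 h replicate 2 alone, and the value was -0.15 without that library.

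S-phase cyclins and E2F factors gave 1 call of 7, a lower one, against 0.185% of all genes tested. Ccne2, a cyclin E that drives Cdk2 at the entry to S phase, fell 3.68-fold, to 5.34 and 5.6 CPM at 48 h, against 20.4, 11 and 29.0 CPM at 40 h (log2 -1.88 ± 0.40, edgeR adjusted p = 0.0332). Its sister Ccne1 was at log2 -1.66 ± 0.48 and E2f1 at -1.11 ± 0.29, both short of the threshold (edgeR adjusted p = 0.127 and 0.0815). Tfdp1, the DP partner of E2F proteins and no member of the list, fell (log2 -0.72 ± 0.16, edgeR adjusted p = 0.043). Ccna2, whose cyclin A2 serves both S phase and the entry to mitosis, was the other S-phase gene with a positive value (log2 0.21 ± 0.33, edgeR adjusted p = 0.874), again from 48 h replicate 2, and the value was -0.25 without it. Cdk2 itself was at log2 -1.03 ± 0.24 (edgeR adjusted p = 0.0536).

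Uhrf1 (chr17:56303321-56323486) did not pass the test in this step. It had 19.2 and 19.9 CPM at 48 h, against 64.9, 27.5 and 107 CPM at 40 h (log2 -1.76 ± 0.53, edgeR adjusted p = 0.149). The 48 h libraries agree within 1 CPM and lie below every 40 h library, while the 40 h libraries differ among themselves severalfold. Its partner Dnmt1 (log2 -0.99 ± 0.27, edgeR adjusted p = 0.0988), the chromatin remodeller Hells (log2 -1.80 ± 0.42, adjusted p = 0.0508) and the histone chaperone subunit Chaf1b (log2 -1.54 ± 0.38, adjusted p = 0.0683) had values of the same sign and also missed the threshold. All 6 genes of chromatin and methylation copying, likewise set apart after the values were seen, had negative values and non-overlapping groups. Over all genes tested, the shares were 53.7% and 15.1%.

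**Figure D2:**
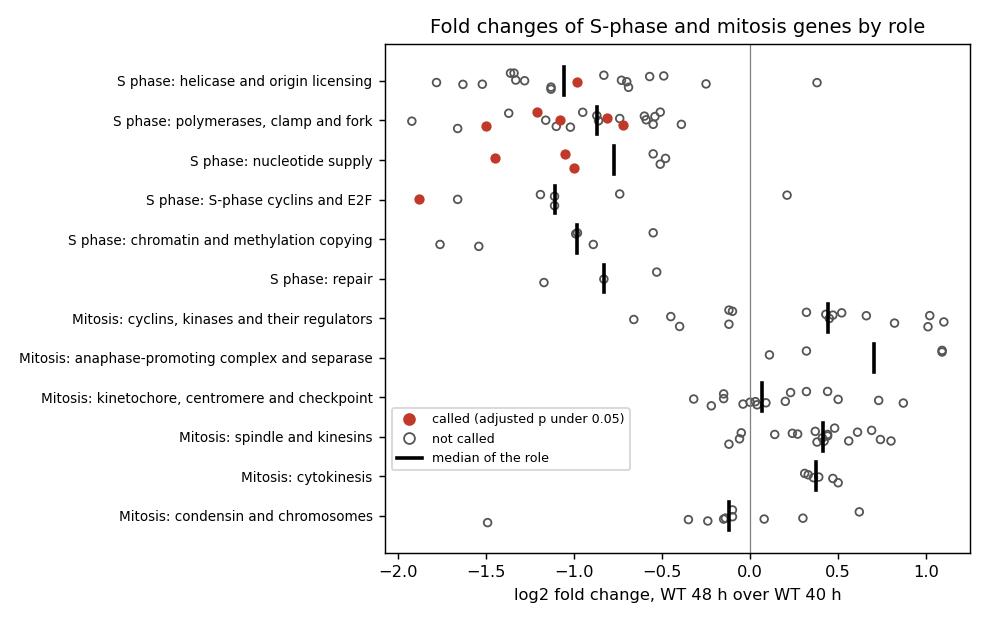
Fold change of each tested member of the S-phase and mitosis lists, grouped by role; filled points are called, open points are not, and black bars are medians. The 10 called genes all belong to S-phase roles, and 2 S-phase genes lie right of 0.

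Promoters of 2 called S-phase genes are shown because they hold an E2F word. The words searched were TTTCCCGC, TTTCGCGC, TTTGCCGC and TTTGGCGC on both strands, in RefSeq windows (GRCm38.p6) of 250 bases before to 50 after the gene start. Of 57 windows of S-phase genes (47 of 61 symbols matched), 18 held such a word (31.6%), as did 2.26% of all windows and 3.76% of the windows of genes tested. Among the called lower genes it was 6 of 25 windows (24.0%). The windows of Pcna, Rrm2, Dut and Rpa1 held none of these letters. Capitals mark the E2F words; for Mcm7, which has 2 windows, the one with more words is given, and its word nearer the 3′ end shares a base with a CCAAT.
Mcm7 (chr5:138171834-138172133, minus strand): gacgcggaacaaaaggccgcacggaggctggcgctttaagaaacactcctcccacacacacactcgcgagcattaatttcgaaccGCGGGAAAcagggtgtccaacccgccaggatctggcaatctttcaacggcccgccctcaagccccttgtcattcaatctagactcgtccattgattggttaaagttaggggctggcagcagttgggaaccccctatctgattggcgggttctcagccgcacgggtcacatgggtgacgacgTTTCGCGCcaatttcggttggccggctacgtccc
Pola1 (chrX:93632106-93632405, minus strand): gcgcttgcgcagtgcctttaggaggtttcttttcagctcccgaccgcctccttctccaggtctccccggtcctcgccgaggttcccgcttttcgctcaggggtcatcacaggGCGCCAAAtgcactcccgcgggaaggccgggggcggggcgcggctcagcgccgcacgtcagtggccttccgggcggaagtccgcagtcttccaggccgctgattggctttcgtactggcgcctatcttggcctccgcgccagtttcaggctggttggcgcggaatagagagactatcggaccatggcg

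The mitosis list gave no call. Of 70 tested, 0 were called by edgeR and 11 had an unadjusted p under 0.05 (10.8% over all genes). DESeq2 and limma on log2(FPKM + 1) each called 1. The median log2 fold change was 0.32, with 49 positive and 21 negative values; 46.2% of all genes had a positive one. Both 48 h libraries lay above all 40 h libraries for 14 of the 70, against 11.5% of all genes tested. The high values were in 48 h replicate 2: relative to their mean over the 5 libraries, the members' median was 0.50 in that library and -0.25 in 48 h replicate 3. Without 48 h replicate 2 the list's median was -0.16.

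Cdc25b, a phosphatase that activates Cdk1, had the smallest p among members of the list with a positive fold change. It had 14.0 and 7.78 CPM at 48 h, against 5.30, 6.53 and 3.41 CPM at 40 h (log2 1.10 ± 0.32, edgeR adjusted p = 0.124). Cenpa, the histone of centromeres, had 91.6 and 41.1 CPM at 48 h, against 39.2, 40.1 and 29.6 CPM at 40 h (log2 0.87 ± 0.29, edgeR adjusted p = 0.217). For both genes 48 h replicate 3 lay close to the top of the 40 h range. The ubiquitin conjugating enzyme Ube2c, the cyclin Ccnb2, the anaphase activator Cdc20 and the cyclin Ccnb1 gave log2 values of 1.09, 1.02, 1.09 and 1.01, none of which passed (edgeR adjusted p = 0.273, 0.321, 0.378 and 0.412). Aurka, the spindle pole kinase, gave 0.52, and -0.02 without 48 h replicate 2.

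Ncapg2, a condensin II subunit, stood at the other end of the mitosis list. It had 27.0 and 22.8 CPM at 48 h, against 73.8, 43.3 and 92.6 CPM at 40 h (log2 -1.49 ± 0.38, edgeR adjusted p = 0.075), with the order of libraries seen for the replication genes. Ncapd3, another condensin II subunit and no member of the list, fell (log2 -0.88 ± 0.20, edgeR adjusted p = 0.043), as did Tubgcp2, of the gamma-tubulin complex (log2 -0.93 ± 0.19, edgeR adjusted p = 0.0331).

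The promoters of Cdc25b, Cenpa and Ube2c are shown with CCAAT and the CHR words TTTGAA and TTCGAA in capitals, on both strands. These genes had the smallest p among mitosis genes with a positive fold change. Of 61 windows of mitosis genes (57 of 72 symbols matched), 48 held a CHR word (78.7%), against 19.2% of all windows. CCAAT was in 70.5% of the mitosis windows and 37.4% of all windows, and an E2F word was in 6.56%. In the Ube2c window a CCAAT overlaps its own reverse complement.
Cdc25b (chr2:131186698-131186997, plus strand): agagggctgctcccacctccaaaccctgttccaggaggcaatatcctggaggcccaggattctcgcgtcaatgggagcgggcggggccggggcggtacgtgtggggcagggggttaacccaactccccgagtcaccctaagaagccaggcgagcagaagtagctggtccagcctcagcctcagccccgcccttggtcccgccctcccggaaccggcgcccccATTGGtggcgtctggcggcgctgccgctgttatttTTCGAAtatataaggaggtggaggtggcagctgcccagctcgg
Cenpa (chr5:30666636-30666935, plus strand): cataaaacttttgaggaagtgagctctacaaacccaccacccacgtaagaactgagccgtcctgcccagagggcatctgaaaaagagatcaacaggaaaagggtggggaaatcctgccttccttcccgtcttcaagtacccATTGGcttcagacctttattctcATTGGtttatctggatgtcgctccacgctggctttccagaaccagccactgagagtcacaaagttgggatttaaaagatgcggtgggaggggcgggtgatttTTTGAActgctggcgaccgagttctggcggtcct
Ube2c (chr2:164769679-164769978, plus strand): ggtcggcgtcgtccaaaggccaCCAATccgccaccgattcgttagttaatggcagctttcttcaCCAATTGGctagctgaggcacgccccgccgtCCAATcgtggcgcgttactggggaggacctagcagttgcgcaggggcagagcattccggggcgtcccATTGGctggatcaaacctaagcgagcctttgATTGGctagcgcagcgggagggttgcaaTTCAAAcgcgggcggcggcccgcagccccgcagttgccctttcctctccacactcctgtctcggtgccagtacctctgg

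Across the WT libraries, the median S-phase gene stood 2.39 and 2.33 log2 units above its baseline mean at 48 h, against 3.54, 2.79 and 3.79 at 40 h. It had been at 0.51 to 0.75 at 24 h and at 2.26 and 2.01 at 30 h. The median mitosis gene stood 6.23 and 5.53 log2 units above baseline at 48 h, against 6.10, 5.53 and 5.68 at 40 h, after 2.18 and 1.83 at 30 h. The S-phase groups do not overlap, and the mitosis groups do.

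**Figure D3:**
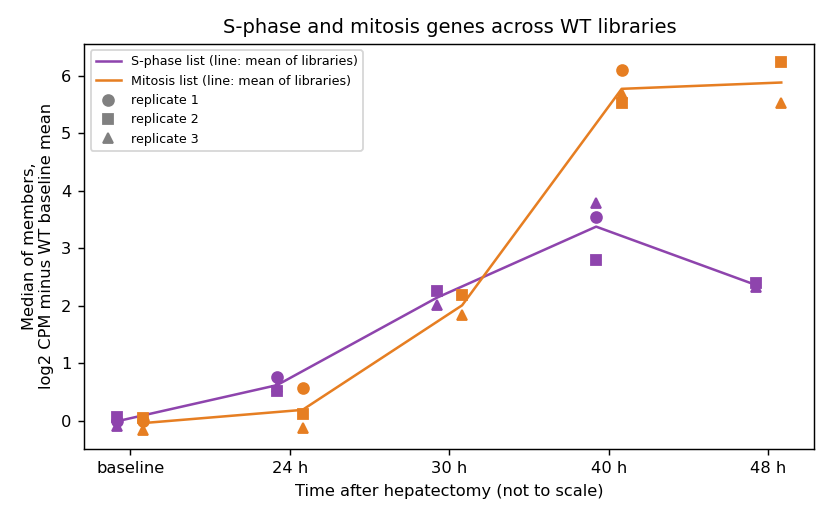
Median over 61 S-phase and 70 mitosis genes of log2 CPM minus the gene's WT baseline mean, 1 point per WT library and a line through the library means. The S-phase median is highest at 40 h (2.79 to 3.79), and the mitosis median is at 5.53 to 6.1 at 40 h and at 6.23 and 5.53 at 48 h.

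Of the 6 genes that rose, Tifa had the largest fold change. Tifa encodes an adaptor of NF-κB signalling (chr3:127789805-127832164, plus strand). It had 14.5 and 98.5 CPM at 48 h, against 9.54, 12.3 and 7.15 CPM at 40 h (log2 2.54 ± 0.50, edgeR adjusted p = 0.0255). 48 h replicate 3 decided this value: without it the log2 fold change was 0.58 (edgeR adjusted p = 0.838). Adam11, a member of the ADAM family without protease activity, had 6.08 and 3.19 CPM at 48 h, against 1.53, 1.43 and 1.05 CPM at 40 h (log2 1.79 ± 0.35, edgeR adjusted p = 0.0255), after 3.43 to 10.4 CPM at baseline. Both of its 48 h libraries were thus above the 40 h group and inside or below the baseline range.

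Akr1b3, aldose reductase, had 15.4 and 10.8 CPM at 48 h, against 7.19, 7.07 and 7.15 CPM at 40 h (log2 0.88 ± 0.18, edgeR adjusted p = 0.0257). Dynll1, the LC8 light chain of dynein, had 70.0 and 56.1 CPM at 48 h, against 38.5, 36.9 and 28.6 CPM at 40 h (log2 0.86 ± 0.17, edgeR adjusted p = 0.0255). Ssh3, a cofilin phosphatase, rose 1.80-fold and Snx7, a sorting nexin, 1.45-fold (edgeR adjusted p = 0.043 and 0.0449). The groups did not overlap for any of the 6, but this held for all 32 called genes and adds no support to the calls. Over all genes tested, both 48 h libraries lay above all 40 h libraries for 11.5%.

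Several of the genes that fell serve metabolism. Cyp2a22, a cytochrome P450 with close copies in the genome, had the largest fold change among those that fell, at 0.791 and 2.63 CPM at 48 h, against 10.4, 7.84 and 7.6 CPM at 40 h (log2 -2.35 ± 0.47, edgeR adjusted p = 0.0257). Reads shared with those copies make its level uncertain. Hsd17b7, an enzyme of cholesterol synthesis, had 45.3 and 63.3 CPM at 48 h, against 115, 92.9 and 122 CPM at 40 h (log2 -1.02 ± 0.22, edgeR adjusted p = 0.0389). It was the 1 call among 24 cholesterol synthesis genes, of which 22 had a negative value, with a median of -0.54. Over all genes tested, 0.185% were called lower and 53.7% had a negative value. Cyp51 and Idi1 of the same pathway were at log2 -0.91 and -1.01 (edgeR adjusted p = 0.109 and 0.144).

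Rdh16, a retinol dehydrogenase with close copies, fell 1.92-fold (edgeR adjusted p = 0.0331). Pank3, a pantothenate kinase of coenzyme A synthesis, had 45 and 54.4 CPM at 48 h, against 75.4, 73.5 and 88.2 CPM at 40 h (log2 -0.67 ± 0.13, edgeR adjusted p = 0.0255). Slc35a3, a UDP-N-acetylglucosamine transporter of the Golgi, fell 1.43-fold (edgeR adjusted p = 0.043). Other calls were the chromatin proteins Dek and Psip1, the BRCT protein Paxip1 and the importin Ipo5, which fell 1.58-fold, 1.46-fold, 1.61-fold and 1.53-fold (edgeR adjusted p = 0.0255, 0.0389, 0.0255 and 0.043).

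Of 35 genes of fatty acid oxidation and ketogenesis, edgeR called 0, while 16 had an unadjusted p under 0.05 and all 35 had a negative fold change, with a median of -0.50. A negative value was found for 53.7% of all genes and an unadjusted p under 0.05 for 10.8%. Ehhadh, the peroxisomal bifunctional enzyme, had 194 and 146 CPM at 48 h, against 308, 401 and 614 CPM at 40 h (log2 -1.38 ± 0.41, edgeR adjusted p = 0.143). Bdh1, which makes the ketone body 3-hydroxybutyrate, and Eci1, an isomerase for unsaturated fatty acids, came nearest the threshold (log2 -0.73 ± 0.18 and -0.82 ± 0.21, edgeR adjusted p = 0.0597 and 0.0711). Slc2a2, the glucose transporter of hepatocytes, was at 88.3 and 88.2 CPM at 48 h, against 162, 161 and 211 CPM at 40 h (log2 -1.01 ± 0.23, edgeR adjusted p = 0.0508).

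The endoplasmic reticulum chaperone list had 18 of 23 positive values (46.2% over all genes tested) and a median of 0.33. It had 0 calls by edgeR and 8 genes at an unadjusted p under 0.05 (10.8% over all genes). Xbp1, a transcription factor of the unfolded protein response, had 183 and 293 CPM at 48 h, against 158, 125 and 97.2 CPM at 40 h (log2 0.91 ± 0.22, edgeR adjusted p = 0.0667). Hspa5, the BiP chaperone, had 1110 CPM in both 48 h libraries, against 693, 641 and 724 CPM at 40 h (log2 0.70 ± 0.26, edgeR adjusted p = 0.300). The groups do not overlap for either gene.

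Some lists moved with single libraries. Acute phase genes had 27 of 30 positive values (46.2% over all genes tested) and a median of 0.65. Among them were 0 calls and 7 genes at an unadjusted p under 0.05 (10.8% over all genes). Their summed level was 58400 and 151000 CPM at 48 h, against 75200, 73200 and 80300 CPM at 40 h, and the median was -0.45 without 48 h replicate 3. Orm2, an acute phase glycoprotein of a family of near copies, had 111 and 1280 CPM at 48 h, against 178, 156 and 147 CPM at 40 h (edgeR adjusted p = 0.422). Socs3, the feedback inhibitor of interleukin 6 signalling, had 8.70 and 52.0 CPM at 48 h, against 11.5, 9.21 and 13.2 CPM at 40 h (edgeR adjusted p = 0.411). In each case 48 h replicate 3 was high and 48 h replicate 2 lay below the 40 h group. That library also had the lowest share of albumin counts and the high value of Tifa.

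Kupffer cell markers were high in the same library. All 15 markers were detected in all 5 libraries, with a summed level of 162 and 535 CPM at 48 h, against 212, 309 and 123 CPM at 40 h. The list's median was 0.50, and 14 of 15 values were positive (46.2% over all genes tested). Of the markers, 0 were called and 3 had an unadjusted p under 0.05 (10.8% over all genes). Marco, a scavenger receptor, had 12.0 and 132 CPM at 48 h, against 22.4, 24.7 and 7.67 CPM at 40 h (edgeR adjusted p = 0.328), and Adgre1, the F4/80 antigen, 2.92 and 18.4 CPM at 48 h, against 2.59, 3.95 and 0.918 CPM at 40 h (edgeR adjusted p = 0.173). The part of these cells in the acute phase and Tifa values was not tested. In bulk tissue, more cells of a type and more RNA per cell cannot be told apart. Markers of neutrophils and monocytes summed to 29.7 and 42.8 CPM at 48 h, against 15.6, 10.2 and 10.7 CPM at 40 h. Most of that sum was 1 gene, Prtn3, with 25.1 and 30.2 CPM at 48 h, against 9.54, 6.09 and 7.01 CPM at 40 h (edgeR adjusted p = 0.155). Of the 12 markers tested, 8 had a positive value (46.2% over all genes tested) and 4 a negative one. Of these markers 0 were called, and only Prtn3 had an unadjusted p under 0.05 (10.8% over all genes). Camp, Ngp, Mmp8 and Mpo of that list stayed under 0.5 CPM in all 5 libraries.

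The 12 core clock genes gave 0 calls, and 1, Nr1d2, had an unadjusted p under 0.05, against 10.8% of all genes tested. Both 48 h libraries lay below all 40 h libraries for 4 of the 12, against 15.1% of all genes tested. Nr1d2, a repressor of the clock loop, had 16.1 and 18.2 CPM at 48 h, against 38.9, 23.3 and 104 CPM at 40 h (edgeR adjusted p = 0.214). Arntl, the gene it represses, had 27.7 and 21.3 CPM at 48 h, against 16.3, 26.8 and 4.79 CPM at 40 h (edgeR adjusted p = 0.833). The clock targets Dbp and Ciart were at 0.247 and 0.895 CPM and at 1.04 and 1.45 CPM at 48 h, against 1.53, 0.768 and 9.44 CPM and 3.00, 3.24 and 19.2 CPM at 40 h. For all 4 genes 40 h replicate 3 stood apart from the other 40 h libraries. It is also the library with the highest level of each called S-phase gene, and the part of the clock in those levels was not tested. Adjusted p-values by edgeR were 0.488 for Cry2, 0.745 for Per1 and 0.629 for Per3, and between 0.614 and 0.979 for Rora, Nr1d1, Cry1, Npas2, Per2 and Clock.

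**Figure D4:**
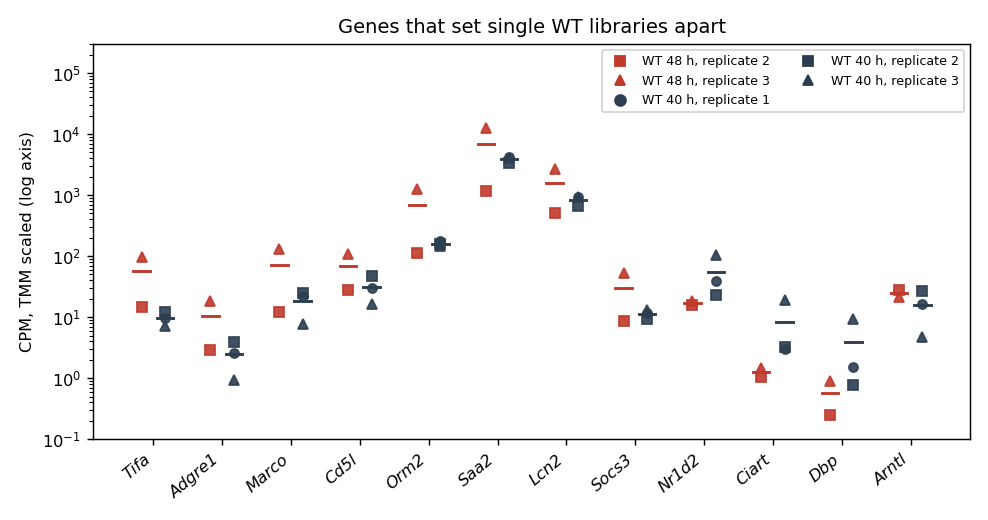
CPM on a log axis of 12 genes chosen after their values were seen, 48 h left of 40 h, with group means as bars. 48 h replicate 3 is highest for Tifa (98.5 CPM), Marco (132 CPM) and Orm2 (1280 CPM), and 40 h replicate 3 is highest for Nr1d2 (104 CPM) and Dbp (9.44 CPM).

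The same step in KO livers shares no library with the WT step. It had 585 calls of 14090 (4.15%), 371 of them higher (2.63%) and 214 lower (1.52%) at 48 h. Of the 32 genes called in WT, 16 were called in KO with the same sign (12 lower, 4 higher), and 31 had the same sign. The share of all genes with the same sign in both steps was not counted. The KO fold change was the smaller in size for 30 of the 32, but these genes were chosen by their WT values, so that count is no comparison of the steps. Pcna averaged 61.6 ± 20.7 CPM in KO livers at 48 h and 117 ± 38.6 CPM in KO livers at 40 h (SD, n = 3 each; log2 -0.92 ± 0.21, edgeR adjusted p = 0.0113). Pclaf and Pola1 had nearly the same fold change as in WT, log2 -1.51 ± 0.32 and -1.19 ± 0.24 (edgeR adjusted p = 0.00685 and 0.00572). Among S-phase genes 10 were called lower in WT and 8 in KO, with medians of -0.98 in WT and -0.39 in KO. Among mitosis genes 10 were called higher and 1 lower in KO, with medians of 0.32 in WT and 0.51 in KO, and the called genes include Cdc25b, Cenpa and Cdc20 (log2 1.35, 1.18 and 1.6, edgeR adjusted p = 0.00728, 0.0105 and 0.0328).

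The difference between the WT and KO steps was tested directly for each gene. No gene passed: edgeR called 0 of 14090, DESeq2 and limma on log2(FPKM + 1) also called 0, and 584 genes had an unadjusted p under 0.05 by edgeR (smallest adjusted p = 0.997). The 32 genes called in WT were chosen by WT values that also enter the difference, so a count among them does not bear on it. Of these 32, 6 had an unadjusted p under 0.05 for the difference. Tifa was 1 of them, with log2 0.32 ± 0.44 in KO and a difference of 2.22 ± 0.66 (edgeR adjusted p = 0.997). Ddah1, which breaks down asymmetric dimethylarginine, had the smallest p for the difference among genes over a minimum mean log2 CPM of 1, with log2 -0.07 in WT and 1.57 in KO (difference -1.63, edgeR adjusted p = 0.997). Ahr, the dioxin receptor, and Lgals3, galectin-3, had differences of 1.15 and 2.13 (edgeR adjusted p = 0.997 for both). Those WT values rest on 48 h replicate 3, without which Ahr was at -0.40 and Lgals3 at -0.09 in the WT step.

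**Figure D5:**
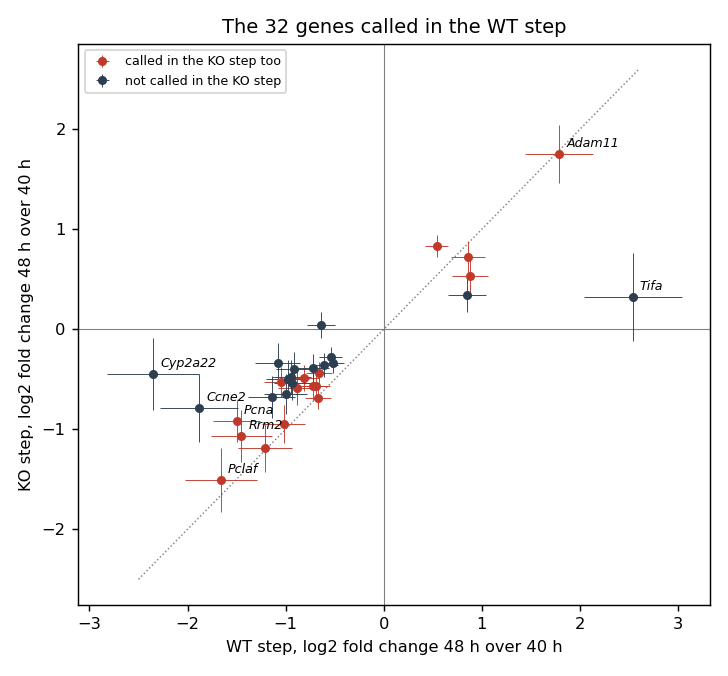
Fold change with standard error of the 32 genes called in the WT step (x axis) against the same genes in the KO step (y axis); the dotted line marks equal values. The genes were chosen by their WT values; Tifa is at 2.54 in WT and 0.32 in KO, and 16 genes are called in both.

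Counting across overlapping genes limits some of these values, since the sources used here do not give the strand setting of the counting. Ccne2, Mcm7, Pclaf, Tifa, Tubgcp2, Dek, Psip1 and Cdc25b overlap genes on the other strand. The overlapping neighbour averaged 15.0 CPM for Ccne2, up to 72.2 CPM for Mcm7 and up to 22.4 CPM for Tifa, against means of 14.3, 87.4 and 28.4 CPM for the genes themselves.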

How the data were processed

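Per the labels' protocols, liver poly(A) RNA was read as 100 bp paired ends. The authors deposited raw counts per gene (19966 genes) and FPKM values, which are scaled by length and depth. TopHat2 2.1.0, HTSeq and Cufflinks 2.2.1 with build mm10 are named in the submitters' processing notes; the sources used here give no strand setting or annotation. Counts were tested with edgeR 4.0.16 in R 4.3.3 (TMM factors, filterByExpr, robust quasi-likelihood fit, 16 group means over all 45 libraries, 29 residual degrees of freedom), with Benjamini-Hochberg adjustment over the 14090 genes kept and a threshold of 0.05. The filter kept at least 99.944% of counts. WT at 48 h has 2 libraries, so the spread is shared across groups. Scripts were tested on simulated counts. DESeq2 1.42.0, limma 3.58.1 on log2(FPKM + 1) for genes with a mean FPKM of at least 0.5, and leaving out libraries were alternatives. The text draws on the largest called changes in each direction, up to 12, with no overlap between groups and a mean log2 CPM over a minimum of 1, the 4 smallest p in each gene list, the clock genes and Uhrf1, and the 6 smallest p of the difference between genotypes; other genes, and the roles that split the S-phase and mitosis lists, were chosen after their values were seen. The comparison and the gene lists were chosen with earlier results of these data known. Gene coordinates are from GENCODE M21 (GRCm38). The values of 2 genes in these lists and calls are not reported here.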

Additional observations from a re-analysis of the deposited data

How the results depend on the processing

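The called genes have groups that do not overlap, so leaving out a library could not turn their sign, and their direction is no sign of stability. The S-phase median was between -1.18 and -0.74 when single libraries were left out. The count of 32 (6 higher, 26 lower) became 128 with DESeq2 (33 and 95), 59 without the libraries labelled 96 h (12 and 47), 49 with limma on log2(FPKM + 1) (13 higher), 20 without a filter on low counts (14 lower), 1 in the 4 groups at 40 h and 48 h (1 and 0) and 0 in the 5 WT libraries alone (0 and 0). In the 5 WT libraries 1294 genes had an unadjusted p under 0.05. The fits on the 4 groups and on the 5 WT libraries have fewer samples to estimate the spread. The part of that in their counts was not tested. The count of 32 became 2 at an adjusted p under 0.01 and 13 with a 2-fold change also required. Leaving out 1 library gave 0 to 119 calls, 0 to 52 higher and 0 to 100 lower. The 0 came without 40 h replicate 3, where 882 genes had an unadjusted p under 0.05. The 32 calls were all shared with DESeq2, and 19 with limma on log2(FPKM + 1).

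The S-phase count of 10 became 19 with DESeq2, 5 without a filter, 0 in the 4 groups, 0 in the 5 WT libraries and 0 to 27 with single libraries left out. The mitosis count of 0 became 1 with DESeq2, 1 with limma and 0 to 1 with single libraries left out, and the mitosis median ranged from -0.16 to 0.63. The KO count of 585 became 121 in the 4 groups and 1306 with limma. The count for the difference between genotypes was 0 to 1 with single libraries left out. The causes of these shifts in counts and medians were not tested.

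The replicate number as a block gave 11 calls (3 higher, 8 lower), all among the 32, and 3 S-phase calls. Deviations of same-numbered libraries from their group means had correlations of -0.148 for replicate 2 and -0.0289 for replicate 3. With 2 libraries at 48 h, their deviations mirror each other, so these correlations cannot show whether same-numbered libraries belong together. The labels tie the replicate number to no animal, batch or day.

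Signs that turned concern genes that were not called, each when 1 library was left out. The log2 value ran from -0.40 to 0.67 for Ahr, -0.15 to 1.78 for Cd5l, -0.03 to 1.16 for Fga, -0.72 to 1.69 for Lcn2, -0.09 to 1.58 for Lgals3, -0.61 to 2.84 for Marco, -0.53 to 2.99 for Orm2, -1.72 to 1.67 for Saa2 and -0.37 to 2.2 for Socs3, the lowest without 48 h replicate 3 and the highest without 48 h replicate 2. It ran from -0.02 to 0.91 for Aurka, -0.25 to 0.56 for Ccna2 and -0.15 to 0.76 for Dbf4, the lowest without 48 h replicate 2 and the highest without 48 h replicate 3. It ran from -0.04 to 0.17 for Clock, -0.08 to 0.85 for Cry1, -0.53 to 0.28 for Ddah1, -0.22 to 1.67 for Npas2, -1.21 to 0.03 for Nr1d1 and -0.19 to 0.06 for Per2.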

Other observations

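The lists below were not described above and had 0 calls by edgeR. Over all genes tested, 53.7% had a negative value and 10.8% an unadjusted p under 0.05. Cdkn3, a phosphatase of Cdk1 and Cdk2, had 30.0 and 10.2 CPM at 48 h, against 5.71, 8.61 and 5.97 CPM at 40 h (log2 1.57 ± 0.44, edgeR adjusted p = 0.11), within a list of 20 G1 cyclins and inhibitors with 14 negative values, 7 at an unadjusted p under 0.05. In KO livers Cdkn3 was called higher at 48 h (log2 2.15, edgeR adjusted p = 0.0034). Stat2, a transducer of interferon signals, had 58.3 and 75.2 CPM at 48 h, against 43.2, 49.2 and 34.5 CPM at 40 h (log2 0.66 ± 0.16, edgeR adjusted p = 0.0619), in a list of 40 interferon-stimulated genes with a median of 0.15 and 4 at an unadjusted p under 0.05.

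Ppp1r3g, a glycogen targeting subunit of protein phosphatase 1, had the most negative log2 value of the gluconeogenesis and glycogen list, with 0.445 and 0.056 CPM at 48 h, against 1.59, 1.86 and 14.6 CPM at 40 h (log2 -4.48 ± 1.69, edgeR adjusted p = 0.303). The highest value was again in 40 h replicate 3. Ribosome biogenesis genes had a median of 0.02 and proteasome genes a median of -0.06, with 1 gene of each list at an unadjusted p under 0.05.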
